A study of Homo sapiens
Mus musculus with 6 samples.

Results

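The genes described here are the matrix metalloproteinases (MMP), the ADAM, ADAMTS and ADAMTS-like genes, and the tissue inhibitors of metalloproteinases (TIMP), measured in tumour cells and in the host stroma of a xenograft. They were picked by gene symbol alone, as a family name followed by a number and at most 1 letter. This gave 79 of the 63652 genes of the human table and 84 of the 42979 genes of the mouse table. HT29, an established human colorectal adenocarcinoma line, was grown under the skin of nude mice, which lack a thymus, for 4 weeks. The study compared 3 control tumours with 3 tumours overexpressing the mouse laminin alpha 1 chain, which is part of a laminin of basement membranes. The sources used here do not give the age and sex of the mice, the promoter of the transgene, or whether the cells were 1 clone or a pool. In such a graft human RNA comes from the cancer cells, and mouse RNA comes from the host and from the transgene.

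Matrix metalloproteinases are zinc enzymes, made as inactive precursors, that cut collagens, laminins and other matrix proteins once their propeptide is removed. ADAM proteins sit in the membrane and many of them shed growth factors and receptors from the cell surface, whereas ADAMTS proteins are secreted and cut proteoglycans, procollagens and other matrix proteins. TIMPs block MMPs and some ADAM and ADAMTS enzymes. In colorectal tumours matrilysin (MMP7) is known as a product of the epithelial cells, while most other MMPs are known mainly from stromal and immune cells.

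Each table holds 1 value per group, so no SD between tumours can be given for most genes. A level is a gene's share of all signal in its table, in parts per 1000000 (ppm). Levels follow read numbers and are not corrected for gene length, so a level is compared between groups and not between genes. Significance is that of the authors' test, called at an adjusted p under 0.05 over all genes tested in a table. Genes said to rise or fall are those that passed this test. The human table carries the epithelial markers of the labelled line, and all 9 of a list of colorectal epithelial genes had signal, from 19.6 ppm (CDX2) to 1920 ppm (KRT8) in control tumours. A second list of 9 genes that epithelial cells lack summed to 1.86 and 3.20 ppm in control and laminin tumours, with PECAM1 at 0 and COL1A1 higher (0.377 and 1.38 ppm). The part of such reads in human members of the same low level was not tested. The transgene, read as mouse Lama1, had 4.75 and 1077 ppm, and human LAMA1 had 1.01 and 0.978 ppm. In bulk tumours, fewer cells of a type and less RNA per cell cannot be told apart.

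Depth limits the low members. The smallest amounts by which the deposited values differ behave as the worth of 1 read in each of the 3 tumours of a group. In the group values 1 read was worth 0.0120 to 0.0137 ppm in the human table and 0.103 to 0.254 ppm in the mouse table, which makes host values the coarser ones. Read numbers below are derived from these steps and count the reads of all 3 tumours of a group. For low values the steps also show how many reads came from each tumour, although the tumours cannot be matched to their labels. The host libraries of the laminin tumours were of unequal depth, with a largest step 2.47 times the smallest.

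In the tumour cells 6 protease and inhibitor genes rose in laminin tumours and none fell. ADAMTS6, ADAMTS15, MMP1, ADAM8, TIMP2 and MMP23B passed the test, the last of them on 2 reads. The members tested numbered 40, and the 6 called make 15%, beside 8.08% of all 25838 human genes tested (5.63% higher and 2.45% lower). At 1 ppm or more 5 of 25 members were called, beside 11.6% of all genes at that level (7.9% higher and 3.69% lower). At an adjusted p under 0.01, 5 members were higher and none lower, beside 5.57% of all genes (4.08% higher and 1.49% lower). Under 0.1, 6 were higher and 1 lower, beside 9.91% (6.79% and 3.12%). No member fell, and 1 of the 11 members with an unadjusted p under 0.05 (16.2% of all genes had one, 10.1% higher and 6.07% lower) had a lower level, MMP28. Of the tested members 28 (70%) had a ratio of laminin over control above 1, beside 50.4% of all human genes tested. The median log2 ratio of the tested members was 0.18, beside 0.00 for all genes tested. Another 17 members had signal but were marked as not tested, and 22 were listed at 0 in both groups.

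**Figure D1:**
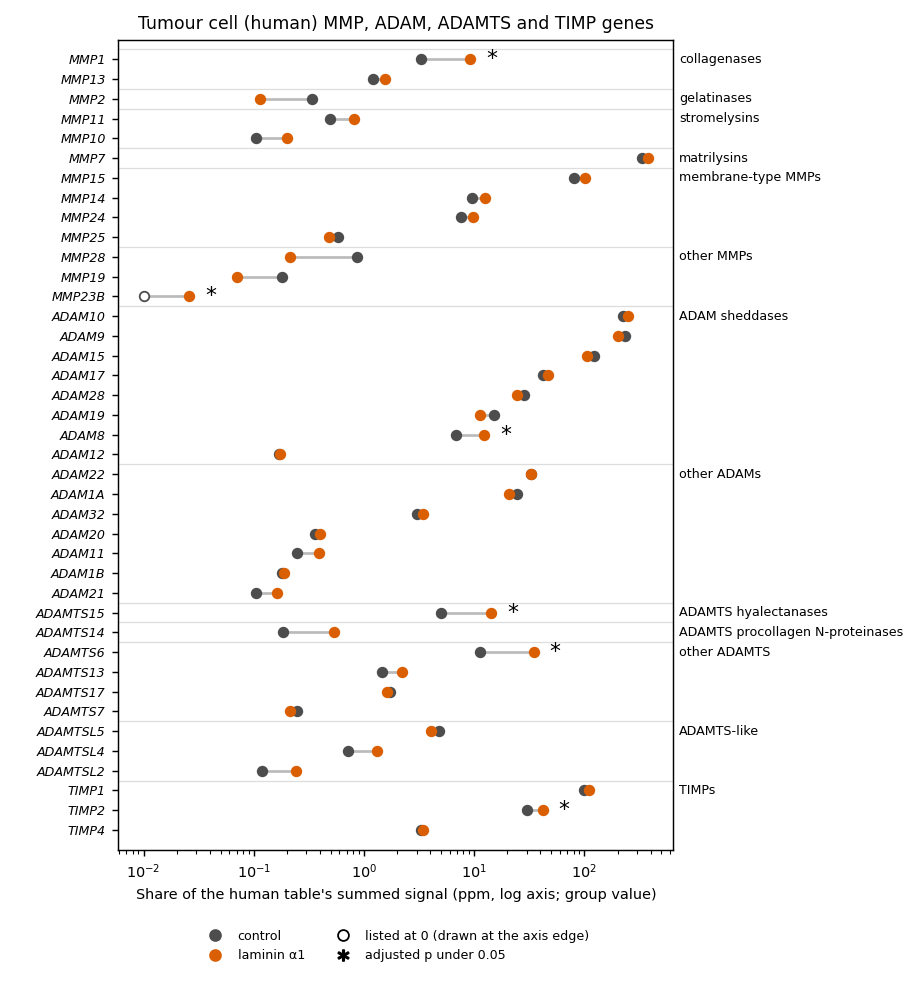
Level of each tested human member in control (grey) and laminin α1 tumours (orange), as ppm of the human table's summed signal on a log axis, grouped by role. Each point is 1 group value, an asterisk marks an adjusted p under 0.05, and ADAMTS6 shows the highest ratio among the members with signal in both groups.

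Among the human collagenases, which cut fibrillar collagen, MMP1 (ENSG00000196611) rose 2.78-fold, from 3.29 to 9.13 ppm, or from about 252 to 725 reads. The authors' deposited table gave p = 5e-05, and the adjusted p was 0.00121. MMP1 shares its locus in the table with MMP3 and MMP10. MMP10 had 0.105 and 0.201 ppm with an adjusted p of 0.987, and MMP3 had about 3 and 4 reads and no test. MMP13 stood at 1.20 and 1.56 ppm, with an adjusted p of 0.625. MMP8, known as the neutrophil collagenase, had no read in control tumours and 2 reads in laminin tumours, both from the same tumour.

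The gelatinases were at the limit of detection in the tumour cells. MMP9 was listed at 0 in both groups. MMP2 (ENSG00000087245) had 9, 11 and 6 reads in the control tumours and 5, 2 and 2 reads in the laminin tumours. Per tumour this came to 0.227 to 0.422 ppm in control and 0.0721 to 0.194 ppm in laminin tumours, without overlap, while the authors' test gave p = 0.101 in the authors' deposited table. The matrilysin MMP7 (ENSG00000137673), on the other hand, rested on about 25396 and 30149 reads. Its level was 331 ppm in the control and 379.5 ppm in the laminin group, 1.15-fold, for which the authors' deposited table gave p = 0.110. The depth behind MMP7 was thus the largest of all human members, and it did not pass.

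No human membrane-type MMP passed the test over all genes. MMP14, which activates MMP2 at the cell surface, had 9.58 and 12.6 ppm, for which the authors' deposited table gave p = 0.0228 and an adjusted p of 0.183. MMP15 had 81.2 and 100.5 ppm, for which the authors' deposited table gave p = 0.0168 and an adjusted p of 0.147. MMP24 had 7.61 and 9.70 ppm, and it overlaps the antisense gene MMP24-AS1, from which these libraries cannot separate it.

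Both members of the remaining MMPs with a low p were carried by few reads. MMP28 (ENSG00000129270) had 22, 27 and 17 reads in the control tumours and 3, 7 and 7 in the laminin tumours. The levels per tumour were 0.644 to 1.04 ppm and 0.116 to 0.269 ppm, and the groups did not overlap. Its group level was 4.05-fold lower in laminin tumours, for which the authors' deposited table gave p = 0.00415 and an adjusted p of 0.0510, just outside the threshold. MMP23B (ENSG00000189409) was called for which the authors' deposited table gave p = 0.00015 and an adjusted p of 0.00327. Its value was 0 in control tumours and equalled 2 reads of a single laminin tumour, and it has a near-identical copy, MMP23A, listed at 0 in both groups. No fold change is given for MMP23B.

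Of the human ADAM sheddases only ADAM8 rose. ADAM8 (ENSG00000151651), known from leukocytes and tumour cells, went from 6.83 to 12.4 ppm, 1.81-fold, or from about 524 to 983 reads. The authors' deposited table gave p = 5e-05, and the adjusted p was 0.00121. The enzymes known for shedding Notch and EGF-family ligands did not pass. ADAM10 had 224 and 247.5 ppm with an adjusted p of 0.692, and ADAM17 had 42.3 and 46.3 ppm with an adjusted p of 0.929. ADAM9 had 235 and 201 ppm, and ADAM15 had 122 and 106 ppm, with adjusted p of 0.396 and 0.524. The 8 tested sheddases had ratios from 0.757 (ADAM19) to 1.81 (ADAM8), 4 above and 4 below 1.

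The other human ADAM genes, many of which lack the catalytic site or are known mainly from testis, held 0 calls among 7 tested. Of these, 0 had an unadjusted p under 0.05. ADAM22, a neuronal receptor without protease activity, was at 32.8 ppm in both groups. ADAM1A had 24.6 and 20.8 ppm, and ADAM32 had 3.03 and 3.44 ppm. ADAM20 shows how 1 tumour can hold a group value. Its control reads were 14, 6 and 7, whereas all 31 reads of the laminin value fitted the same tumour.

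ADAMTS6 and ADAMTS15 were the human ADAMTS genes that rose. ADAMTS6 (ENSG00000049192), a secreted metalloprotease with thrombospondin repeats, went from 11.2 to 34.6 ppm, 3.09-fold, or from about 860 to 2751 reads. ADAMTS15 (ENSG00000166106), which cleaves hyaluronan-binding proteoglycans such as versican, went from 4.97 to 14.2 ppm, 2.86-fold, or from about 381 to 1127 reads. For each of them p was 5e-05 in the authors' deposited table, and the adjusted p was 0.00121. ADAMTS14, a procollagen N-proteinase, had 6, 5 and 3 reads in control and 15, 17 and 10 reads in laminin tumours. It was higher in every laminin tumour (0.360 to 0.654 ppm) than in any control tumour (0.114 to 0.246 ppm) but missed the threshold, at p = 0.0107 in the authors' deposited table and an adjusted p of 0.105. ADAMTS13, which cuts von Willebrand factor, had 1.45 and 2.22 ppm with an adjusted p of 0.856, and ADAMTS17 had 1.72 and 1.60 ppm with an adjusted p of 0.987. Of the ADAMTS-like genes, which have no protease domain, ADAMTSL4 had 0.710 and 1.30 ppm with an adjusted p of 0.259 and ADAMTSL5 had 4.77 and 4.05 ppm with an adjusted p of 0.694.

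Among the human inhibitors TIMP2 (ENSG00000035862) rose 1.38-fold, from 30.3 to 41.8 ppm, or from about 2328 to 3320 reads. The authors' deposited table gave p = 0.00165, and the adjusted p was 0.0244. TIMP1 had 98.3 and 110.0 ppm with an adjusted p of 0.751. TIMP4 had 3.31 and 3.42 ppm with an adjusted p of 0.987, and TIMP3 was listed at 0 in both groups. TIMP1 and TIMP4 lie inside the synapsin genes SYN1 and SYN2, and reads of overlapping genes cannot be separated without strand. Genes that were called share a listed locus with others too, MMP23B with CDK11B. For TIMP2, ADAMTS6 and MMP1 these include DDC8, RPEP1 and WTAPP1, and for ADAMTS15 and ADAM8 none is listed. The part of such genes in these levels was not tested.

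For 9 tested human members the reads per tumour could be resolved in both groups, and 3 of them (ADAMTS14, MMP2 and MMP28) did not overlap between the groups. Among all 4729 human genes resolved in this way, 16.3% did not overlap, 11.7% being higher and 4.61% lower in laminin tumours. Of the 17 host members so resolved, 0 were free of overlap, beside 12.9% of 3346 host genes (5.71% higher and 7.14% lower). The 6 other members overlapped, MMP23B among them.

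**Figure D2:**
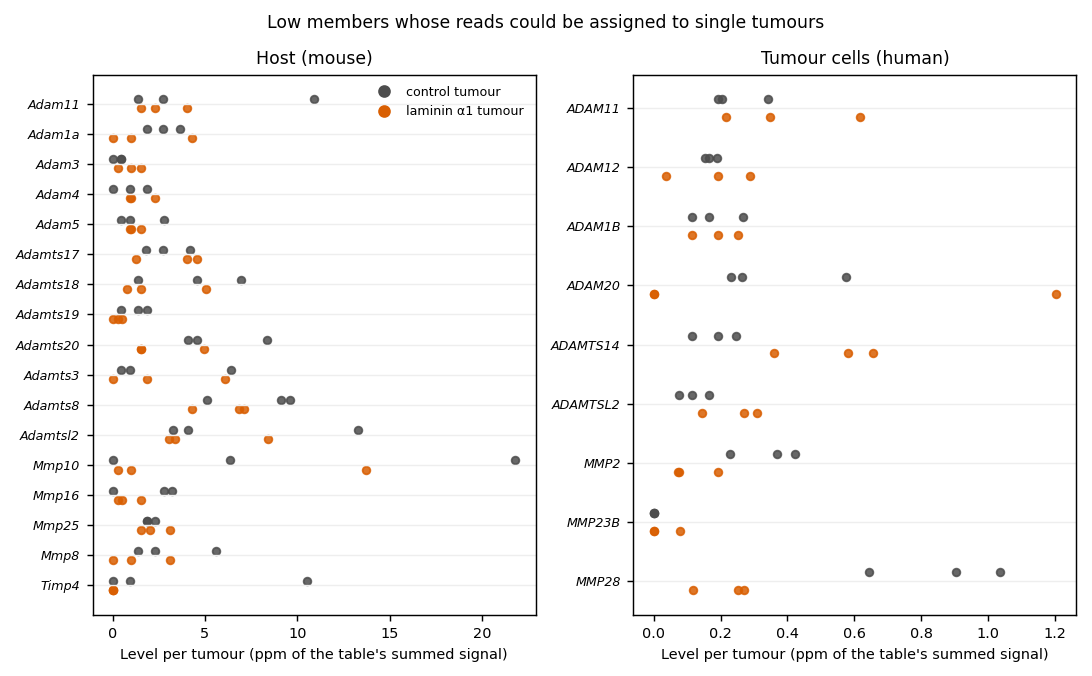
Level per tumour (ppm) of the tested low members whose reads could be assigned to single tumours, for the host (left, 17 genes) and the tumour cells (right, 9 genes). Each point is 1 tumour, grey for control and orange for laminin α1. ADAMTS14, MMP2 and MMP28 separate the groups in the tumour cells, and no host gene shown does.

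In the host 1 member rose and 1 fell. Adamts6 was higher and the collagenase gene Mmp13 was lower in laminin tumours. The 2 calls make 3.39% of 59 members tested, near the 3.54% of all 14339 mouse genes tested (0.579% higher and 2.96% lower). At an unadjusted p under 0.05 there were 8 members, 7 of them higher, beside 10.1% of all genes (2.96% higher and 7.18% lower). At q under 0.01, 0 members were higher and 1 lower, beside 2.42% of all genes (0.307% higher and 2.11% lower). At q under 0.1, 4 were higher and 1 lower, beside 4.46% (0.879% and 3.58%). At 1 ppm or more the calls were the same 2 of 57, beside 3.59% (0.589% higher and 3% lower). The ratio was above 1 in 34 of 59 members (57.6%), beside 46.5% of all mouse genes tested. The median log2 ratio of the tested members was 0.06, beside -0.03 for all genes. Of the other members, 24 were listed at 0 in both groups and 1 had signal but was marked as not tested.

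**Figure D3:**
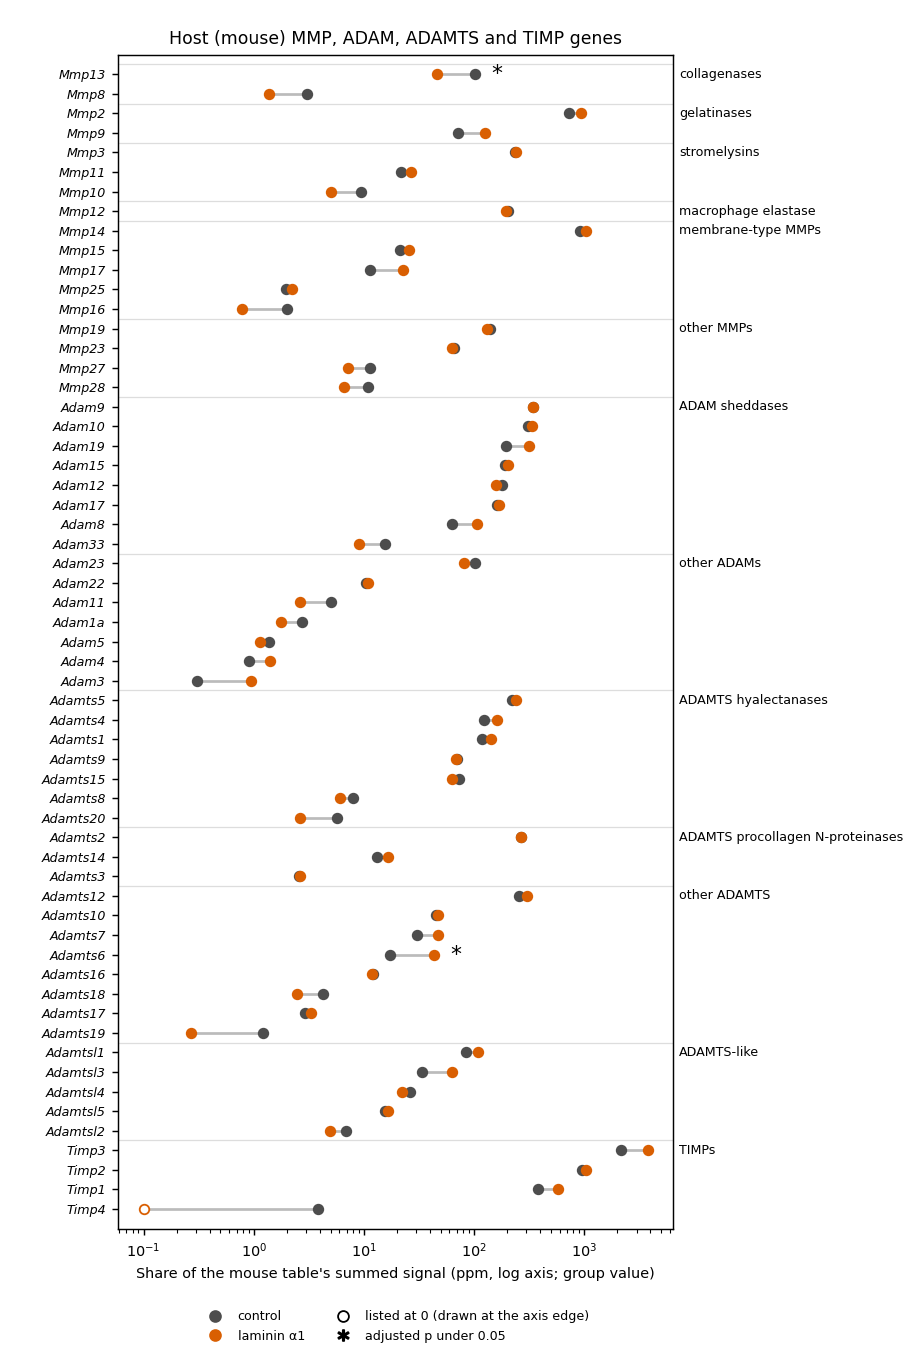
Level of each tested mouse member in control (grey) and laminin α1 tumours (orange), as ppm of the mouse table's summed signal on a log axis, grouped by role. Each point is 1 group value, an open point is a value listed at 0, and an asterisk marks an authors' q-value under 0.05 (Mmp13 and Adamts6).

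Mmp13 (mm10 chromosome 9, 7272513 to 7283333 in the file) is the main interstitial collagenase of mouse tissue. It fell from 102 to 46.0 ppm, 2.22-fold lower, or from about 667 to 263 reads (between 181 and 447 in laminin tumours, depending on which tumour they came from), for which the authors' deposited table gave p = 0.0001 and q = 0.00441. Mmp8, the other tested collagenase, had 12, 5 and 3 reads in control and 0, 2 and 10 reads in laminin tumours. Its levels per tumour overlapped, and its q was 0.860 in the authors' deposited table. Mmp1a and Mmp1b were listed at 0.

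Mmp13 is 1 of 10 members that lie side by side on chromosome 9, between 7272513 and 7699416. Their ratios of laminin over control differed along this stretch. In the order of the file Mmp13 had a ratio of 0.451, Mmp12 0.955, Mmp3 1.03, Mmp10 0.534, Mmp8 0.444 and Mmp27 0.627, and Mmp1b, Mmp1a, Mmp20 and Mmp7 were listed at 0. Apart from Mmp13 none of these passed the test, and their p-values in the authors' deposited table were between 0.136 (Mmp10) and 0.891 (Mmp3). Mmp12, the macrophage elastase, stood at 205 and 196 ppm, and the stromelysin Mmp3 at 234 and 241 ppm. Mmp10, a stromelysin as well, had 47, 0 and 14 reads in control and 18, 2 and 1 reads in laminin tumours, so that 1 tumour led in each group. Mmp11, a stromelysin gene outside this stretch, had 21.9 and 26.7 ppm and did not pass. The human genes of the same stretch, on chromosome 11, numbered 9, of which 4 were tested and 1, MMP1, rose.

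Host gelatinase levels were 734 and 949.5 ppm for Mmp2 (ratio 1.29) and 72.2 and 125 ppm for Mmp9. Mmp9, known from neutrophils and macrophages, had a ratio of 1.73 and missed the threshold, for which the authors' deposited table gave p = 0.0027 and q = 0.0688. Markers of these cells stood beside it as follows. Of the neutrophil list 0 of 5 tested genes passed, with a summed level of 74.0 and 81.7 ppm, and the specific granule genes Ltf, Camp and Ngp had at most 4 reads each in control tumours. Of the macrophage list 0 of 7 tested genes passed, with a summed level of 3651 and 4584 ppm. Their part in the Mmp9 level was not tested.

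Host membrane-type MMPs did not pass. Mmp14 had 918 and 1039 ppm with q = 0.994 in the authors' deposited table, Mmp15 had 21.3 and 26.0 ppm, and Mmp17, which is anchored by a lipid, had 11.5 and 22.8 ppm for which the authors' deposited table gave p = 0.0195 and q = 0.276. All 4 tested members of the remaining host MMPs had a ratio below 1, from 0.613 (Mmp28) to 0.955 (Mmp23), and 0 of them had an unadjusted p under 0.05. Mmp19 stood at 139 and 132 ppm and Mmp27 at 11.4 and 7.17 ppm. Mmp7, with a human counterpart at 331 and 379.5 ppm on the human scale, was listed at 0 in the host in both groups.

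Host ADAM sheddases included 2 genes with a low unadjusted p. Adam8 (chromosome 7, 139978940 to 139992488) had 63.1 and 107.6 ppm, a ratio of 1.71, for which the authors' deposited table gave p = 0.0025 and q = 0.0652. Adam19, known for its part in heart development, had 195 and 318 ppm, a ratio of 1.63, for which the authors' deposited table gave p = 0.00645 and q = 0.125. Adam10 (307 and 334 ppm), Adam17 (161 and 170.4 ppm) and Adam9 (341 and 343 ppm) each had a ratio between 1.01 and 1.09. Of 24 other host ADAM genes 16 were listed at 0 in both groups, among them 4 that neighbour each other on chromosome 8. Those with most signal were Adam23 (102 and 81.7 ppm), Adam22 (10.4 and 10.9 ppm) and Adam11 (5.02 and 2.63 ppm), and none of the 7 tested had an unadjusted p under 0.05. For Adam11 the control reads were 3, 6 and 24 and the laminin reads 3, 8 and 5.

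Adamts6 (chromosome 13, 104287872 to 104494763) rose 2.52-fold in the host, from 17.4 to 43.9 ppm, or from about 114 to 250.4 reads (between 173 and 427 in laminin tumours, depending on which tumour they came from), for which the authors' deposited table gave p = 0.0004 and q = 0.0151. Adamtsl3 and Adamts7 had a ratio above 1.5 without passing. Adamtsl3, an ADAMTS-like gene, had 33.7 and 62.8 ppm (ratio 1.87), for which the authors' deposited table gave p = 0.0024 and q = 0.0636. Adamts7 had 30.3 and 47.2 ppm (ratio 1.56), for which the authors' deposited table gave p = 0.0354 and q = 0.406. Enzymes that cut aggrecan and versican did not pass, namely Adamts5 (224 and 244 ppm), Adamts4 (124 and 163 ppm) and Adamts1 (119 and 143 ppm), with q between 0.693 and 0.996 in the authors' deposited table. The procollagen N-proteinases had ratios from 1.01 (Adamts2, 267 and 270.0 ppm) over 1.02 (Adamts3) to 1.26 (Adamts14, 13.1 and 16.5 ppm). Adamts12 had 257 and 301 ppm, Adamts10 had 44.9 and 46.9 ppm, Adamtsl1 had 84.4 and 108 ppm and Adamtsl4 had 26.4 and 22.1 ppm, and none of these passed.

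No host inhibitor passed, and 0 of the 4 had an unadjusted p under 0.05. Timp3, a TIMP that binds to the matrix, had 2177 and 3829 ppm, a ratio of 1.76, for which the authors' deposited table gave p = 0.0938 and q = 0.657. Timp1 had 382 and 578 ppm (ratio 1.52), for which the authors' deposited table gave p = 0.0676 and q = 0.565, and Timp2 had 951 and 1047 ppm. Timp1, Timp3 and Timp4 lie in loci that the table shares with Syn1, Syn3 and Syn2. Timp4, known from fat and muscle, had 3.82 ppm in control and was listed at 0 in laminin tumours, with q = 0.722 in the authors' deposited table. Of its 25 control reads 2, 23 and 0 came from the 3 tumours, so that 1 control tumour held nearly all of them.

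Fat, muscle and skin markers had lower group values in the host RNA of laminin tumours. Of the adipocyte list 5 of 6 genes fell, with a summed level of 4361 and 272 ppm. For skeletal muscle 5 of 7 fell (3930 and 560 ppm), and for skin 3 of 9 fell (1605 and 7.29 ppm), with Krt1 and Dsg1a listed at 0 in laminin tumours. Every gene of these 3 lists had a lower level in laminin tumours, whether it passed or not. All 3 sebocyte genes fell (356 and 111 ppm), as did 1 of 5 mast cell genes (182 and 125 ppm), and 1 of 2 tested erythroid genes rose (28.2 and 76.8 ppm). Of the fibroblast list, in contrast, 0 of 8 passed (37530 and 35505 ppm), and so did 0 of 6 endothelial genes (1021 and 1073 ppm). The control tumours were not alike in such genes. Of 366 host genes at 1 ppm or more in control and at 0 in laminin tumours, 1 control tumour held 83.9% of the control reads, and the others held 12.3% and 3.83%. For the fat, muscle and skin lists themselves the split between control tumours was not resolved. The sebaceous gene Awat1 and the epidermal protease gene Klk10 had all of their 50 and 39 control reads in the same control tumour. That tumour also held 47 of the 61 control reads of Mmp10, but 2 of the 25 of Timp4. For Mmp13 the reads could not be assigned to single tumours, and the part of these tissues in its level was not tested.

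For 71 members a gene of the same name stands in both tables, and 30 were tested in both. Both sets of values come from the same 6 tumours, so they are given side by side and not as independent evidence. ADAMTS6 passed in both, at 3.09-fold in the tumour cells and 2.52-fold in the host. ADAM8 passed in the tumour cells at 1.81-fold and stood at a ratio of 1.71 in the host without passing. TIMP2 had ratios of 1.38 and 1.10 in tumour cells and host, MMP13 had 1.30 and 0.451, and ADAMTS15 had 2.86 and 0.860, each passing in 1 of the tables. The difference between tumour cells and host was not tested, since group values allow no such test.

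**Figure D4:**
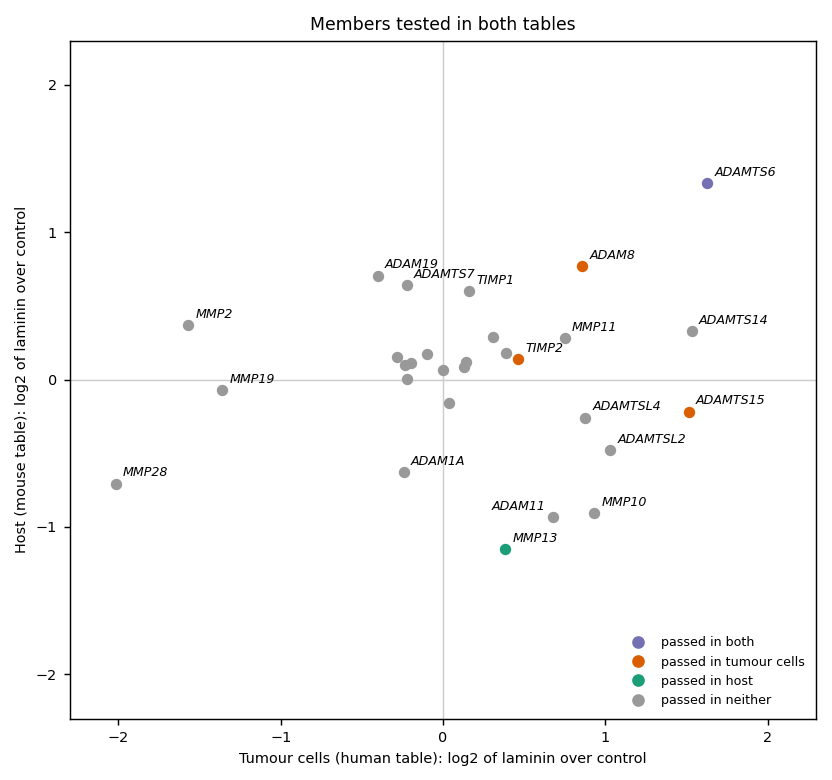
Log2 ratio of laminin over control in the tumour cells (x axis) and in the host (y axis) for members tested in both tables. TIMP4 is not drawn, since its host value was 0 in laminin tumours. Each point is 1 gene, coloured by the table in which it passed. ADAMTS6 lies at 1.63 and 1.33, MMP13 at 0.38 and -1.15, and ADAMTS15 at 1.51 and -0.22.

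Of the 71 members named alike in both tables, 10 had signal in the human table only and 12 in the mouse table only. MMP7 had about 25396 control reads in the human table and ADAM28 about 2195, and both genes were at 0 in the mouse table. Conversely, Timp3 had about 14228 control reads in the mouse table, Adamts2 about 1747 and Mmp9 about 472, and the human genes were at 0. Other genes with many mouse reads had a few human reads. Among them were MMP2 (26 in control and 9 in laminin tumours), ADAMTS5 (0 and 3) and MMP12 (0 and 2). Whether such reads were counted under the wrong species was not tested. ADAMTS6 had about 860 human and 114 mouse reads in control tumours and about 2751 human and 173 to 427 mouse reads in laminin tumours. Whether some of the mouse Adamts6 reads came from the human gene was not tested.

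Other genes of the proteolytic network moved in both directions. The counts below stand beside 8.08% of all human genes tested that were called (5.63% higher and 2.45% lower). For mouse genes this share was 3.54% (0.579% higher and 2.96% lower). Among 14 tested human activators of plasminogen and MMPs 4 rose and 1 fell, with a median log2 ratio of 0.08. The proprotein convertases FURIN (53.7 to 72.7 ppm) and PCSK5 (22.0 to 30.0 ppm), which remove propeptides, rose by log2 ratios of 0.44 and 0.45. The membrane serine protease hepsin (HPN) rose from 1.83 to 6.31 ppm and the kallikrein KLK6 from 125.5 to 179 ppm. The plasminogen activator PLAT, under 1 ppm in both groups and so at low depth, fell from 0.632 to 0.250 ppm. Of 8 tested human inhibitors and inducers outside the TIMPs 1 rose, cystatin C (CST3, 106 to 177 ppm), and 2 fell, the serpins SERPINB5 (54.0 to 36.7 ppm) and SERPINE2 (97.2 to 59.3 ppm). Of 7 other human metalloproteases 2 rose, aminopeptidase N (ANPEP, 80.6 to 536 ppm) and the brush border enzyme meprin alpha (MEP1A, 14.1 to 43.4 ppm). For these changed genes the adjusted p, from the p-values of the authors' deposited table, lay between 0.00121 and 0.0350.

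Among 19 human substrates of ADAM10 and ADAM17 2 rose, the membrane chemokine CX3CL1 (1.33 to 5.81 ppm) and the growth factor TGFA (54.9 to 72.0 ppm). None of 9 tested ADAM partners, the iRhom proteins and tetraspanins that carry ADAM17 and ADAM10, passed or had an unadjusted p under 0.05. Of 12 human transcription factors known to bind MMP promoters 5 rose and 2 fell. ETS1 (47.9 to 78.9 ppm), ETS2 (238 to 415 ppm), ETV4 (68.2 to 103 ppm), JUN (146 to 210.4 ppm) and JUND (67.3 to 87.1 ppm) rose, and FOSL1 (24.0 to 11.7 ppm) and EGR1 (75.8 to 26.3 ppm) fell. Their adjusted p lay between 0.00121 and 0.0485, and the list's median log2 ratio was 0.32. Whether these factors acted on the members, in the tumour cells or in the host, was not tested. None of 3 tested human ADAMTS substrate genes passed or had an unadjusted p under 0.05.

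In the host, Spint2, an epithelial protease inhibitor, fell from 16.8 to 4.79 ppm. The membrane metalloprotease neprilysin (Mme) fell from 50.8 to 12.4 ppm, 1 of 6 tested genes of its list. Of 17 tested ADAM10 and ADAM17 substrates Cx3cl1 rose (85.1 to 155 ppm) and Met fell (31.5 to 12.1 ppm). Of 12 transcription factors Fos (18.7 to 56.6 ppm) and Egr1 (91.0 to 185 ppm) rose and 0 fell, with a list median log2 ratio of 0.42. Klk10 was the 1 call among 12 tested activators and went from 6.03 ppm to a listing at 0. The q-values of these genes in the authors' deposited table lay between 0.00238 and 0.0462. No host ADAM partner (8 tested) or ADAMTS substrate gene (2 tested) passed or had an unadjusted p under 0.05. Among these genes the fallers Klk10, Spint2, Met and Mme stand beside the lower skin and fat markers given above, and the part of those tissues was not tested.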

How the data were processed

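RNA of 6 tumours was sequenced from oligo-dT purified mRNA, per the labels' protocols, with no step described that keeps the strand. TopHat2 and Cufflinks, with hg38 and mm10 as builds, stand in the submitters' processing notes. The sources used here give no versions or options and do not say how the species were separated. The human loci in the file overlapped the RefSeq GRCh38 (GCF_000001405.40) gene of the same symbol for 14 of 79 members, so human coordinates are not printed. Mouse coordinates are printed as the file gives them.

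The authors deposited, per species and per the file headers, 1 signal value per group, with no scale stated, a log2 ratio and an unadjusted p-value; the mouse table also has a q-value. Levels are the deposited signal divided by the mean of both group sums of its table, in parts per 1000000. In units of 1000000, these sums were 893 and 891 for human and 969 and 951 for mouse. Mouse genes were called at a q-value under 0.05. For human genes the Benjamini-Hochberg adjustment of the p-values ran over 25838 genes. The smallest p in the tables is 5e-05. Further deposited copies of the mouse comparison held identical values and were not used, and 1 line with shifted cells was left out.

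Read steps were taken from recurrent low values. Among 2000 low values per group (up to 25 reads), 91.0% and 91.5% (mouse) and 64.0% and 65.9% (human) were whole-number sums of 3 steps to the 6 digits deposited. A member's reads were assigned where exactly 1 such sum existed and under 0.3 were expected at random. The adjustment and the step search were tested on simulated data. There every value was a whole-number sum, and assigned reads were scored only up to 25 reads. Members with more reads, such as MMP28 with 66 control reads, lie outside that range. For them the assignment to single tumours was not tested.

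Members were picked by symbol, with the row of larger summed signal kept where a symbol had several. Named genes are those called, those with an unadjusted p under 0.05, the 3 with most signal in each role at 1 ppm or more, and a fixed set (the TIMPs, MMP2, MMP7, MMP9, MMP14, ADAM10 and ADAM17). Low genes named for their reads per tumour (ADAM20, MMP2, MMP8 and others), for a shared locus or for position were added after their values were seen. Members and lists were chosen with earlier results of these data known. The host list of other inhibitors and inducers is not reported here in full. Nothing in the labels says more of the tumours than that they were independent. The options of the authors' test are not given, so how far its p-values measure the spread between tumours cannot be said. Python 3.11.15, pandas 2.3.3, NumPy 2.4.6 and matplotlib 3.10.9 were used.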

Additional observations from a re-analysis of the deposited data

How the results depend on the processing

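Levels of 1 ppm or more, 5 ppm or more, and an adjustment over genes at 1 ppm or more each left 1 host member higher and 1 lower, and 5 human members higher, MMP23B being lost for its level. With an adjusted p under 0.01 in place of 0.05, 0 host members were higher (Adamts6 was lost) and 5 human members were. Under 0.1, 4 host members were higher, with Adam8, Adamtsl3 and Mmp9 added to Adamts6, and 1 human member, MMP28, was lower. Of human members 18 of 25 at 1 ppm and 13 of 18 at 5 ppm had a ratio above 1, against 28 of 40 without a minimum; fewer members enter. Scaling to equal sums or to the median gene, or without the fat, muscle and skin markers, moved every log2 ratio by at most 0.0313, and no named member changed direction, 38 in the host and 26 in the human table. Leaving out these markers changes only the summed signal, so it cannot show what those tissues add to a member's level. Adding 1 ppm to both levels cannot change a direction, since both levels gain the same amount. Summing all lines of a gene left 28 human ratios above 1. It could not change the host ratios, as each host member had 1 line. The median log2 ratio stayed between 0.06 and 0.10 in the host and between 0.12 and 0.21 in the human table. No paired analysis was possible because the tables hold 1 value per group, and for the same reason the authors' test could not be rerun without a tumour. Of the low members with resolved reads, ADAMTS14, MMP2 and MMP28 do not overlap between the groups. This alone fixes their direction without any 1 tumour, so leaving a tumour out is no separate test. MMP23B has no read without 1 laminin tumour.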
